A study of Mus musculus with 30 samples.

Results

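The transcripts of 10 circadian clock genes were followed in the kidney and aorta of mice with or without Egfr in vascular smooth muscle: Arntl, Clock, Npas2, Per1, Per2, Per3, Nr1d1, Nr1d2, Dbp and Ciart. They were taken by symbol from the 41128 genes of both count tables, and they were chosen by their difference in count between KO and WT kidneys on standard fat diet (SFD), so that this difference is described here and not tested. All 10 passed the filter on low counts in both tissues, which 15034 genes passed in the kidney and 14796 in the aorta. The KO mice carried floxed Egfr alleles and a Cre recombinase under the smooth muscle promoter Smmhc (Myh11). The WT mice lacked loxP sites but had this Cre as well, and both genotypes were male, were labelled C57Bl6J and received tamoxifen, 1 mg per day for 5 days. High fat diet (HFD) was begun at 6 weeks of age, 7 days after tamoxifen, and lasted 18 weeks, and the other mice received SFD. There were 4 kidneys in each of the groups WT-SFD, WT-HFD, KO-SFD and KO-HFD, and 3, 4, 3 and 4 aortae in the same groups. The mice lived in a light-dark cycle of 12 h each. The hour of killing was not given in the sources used here, so that time of day and group cannot be told apart.

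Arntl (also called Bmal1) pairs with Clock or with its relative Npas2 to form the activator of the clock, which binds E-box sequences. Per proteins, together with cryptochromes, inhibit this activator, and the nuclear receptors Nr1d1 and Nr1d2 (Rev-erbs) repress Arntl, so that Arntl mRNA and the mRNAs of its targets peak at opposite times of the day. Dbp, a transcription factor that binds D-box sequences, and Ciart, a repressor of the clock, are direct targets of the activator. In kidney and vessel wall these loops run in most cells.

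Short stretches of promoter were searched for the motifs through which these loops act. RefSeq start sites (GRCm38.p6) were found for 9 of the 10 genes, in 13 windows of 250 bases before the start, and both strands were searched for the E-box CACGTG, the D-box TTATGTAA and the motif AGGTCA, which nuclear receptors bind. The E-box was present in 2 of the 13 windows, the D-box in 1 and AGGTCA in 3, against 6.02%, 0.819% and 14% of all 32851 windows. Ciart had 3 E-boxes, 116, 58 and 44 bases before its start. Per1 had 1 E-box and 1 AGGTCA, 166 and 137 bases before its start, and Per3 had 2 D-boxes at 205 and 158 bases. Clock and Nr1d2 had 1 AGGTCA each, at 119 and 77 bases. The windows of Arntl, Npas2, Nr1d1 and Dbp held none of the 3 motifs, which says only that these letters are not in these windows. The windows of Ciart, Per1 and Per3 are shown because they hold the motifs of the activator and of Dbp, with motifs in capitals (AGGTCA of Per1 is read on the other strand, as TGACCT). A match is a sequence of letters, not a measured site. Ciart lies at chr3:95882229-95882478 on the minus strand, Per1 at chr11:69098699-69098948 on the plus strand and Per3 at chr4:151044666-151044915 on the minus strand.
Ciart: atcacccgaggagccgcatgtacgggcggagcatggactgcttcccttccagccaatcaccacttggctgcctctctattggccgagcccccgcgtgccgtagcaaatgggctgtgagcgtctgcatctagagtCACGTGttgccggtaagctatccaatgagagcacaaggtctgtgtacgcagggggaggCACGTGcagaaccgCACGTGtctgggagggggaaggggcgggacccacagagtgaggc
Per1: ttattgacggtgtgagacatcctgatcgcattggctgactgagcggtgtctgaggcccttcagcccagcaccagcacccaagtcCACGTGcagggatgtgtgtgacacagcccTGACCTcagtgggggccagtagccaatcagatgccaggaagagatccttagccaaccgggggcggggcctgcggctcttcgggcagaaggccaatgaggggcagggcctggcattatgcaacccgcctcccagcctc
Per3: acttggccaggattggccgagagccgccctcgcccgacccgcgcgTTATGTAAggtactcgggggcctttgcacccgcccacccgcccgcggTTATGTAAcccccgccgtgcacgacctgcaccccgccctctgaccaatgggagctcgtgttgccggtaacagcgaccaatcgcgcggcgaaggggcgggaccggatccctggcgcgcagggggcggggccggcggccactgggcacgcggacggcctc

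Expression is given as FPM, counts per 1000000 counts of the library after scaling by edgeR's TMM factors. Total counts per library were 16354880 to 28331314 in the kidney and 6403699 to 13052870 in the aorta. Arntl rested on 20 to 499 counts in the kidney and on 6 to 326 in the aorta, and Dbp on 321 to 4955 and on 76 to 1585. The tissues carried their own markers. The summed level of 6 smooth muscle markers was 9504 to 17240 FPM in the aortae and 104.6 to 155.6 FPM in the kidneys, with Tagln and Cnn1 at 0 in every library of both tissues. In KO-SFD aortae Egfr was at 26.8, 35.5 and 28.0 FPM, and in WT-SFD aortae at 46.7, 39.5 and 54.3 FPM. On HFD it was at 27.5, 40.6, 39.7 and 33.4 FPM in KO and at 65.1, 57.0, 51.2 and 57.0 FPM in WT. KO aortae thus lay below WT aortae on both diets, although neither difference was called (edgeR adjusted p = 0.531 on SFD and 0.13 on HFD). The counts cover all exons of Egfr, and cells that do not express the Cre keep the gene. In the kidney its KO and WT groups overlapped on both diets. In whole tissue, fewer cells of a type and less RNA per cell cannot be told apart.

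Per kilobase of exon, Nr1d1 and Dbp were the most abundant of the 10 genes in both tissues. The median of Nr1d1 was 31.4 FPM per kilobase in the kidney and 72.9 in the aorta, and that of Dbp 28.8 and 31.3. Nr1d2, Per1, Per2 and Per3 followed in that order in both tissues. At the lower end Arntl had a median of 1.01 FPM per kilobase in the kidney and 0.732 in the aorta, and Npas2 of 0.778 and 2.7. The tissues were sequenced at different places, so these levels are set side by side and not compared. Nr1d1 shares 263 bases of exon (8.55%) with Thra and Dbp 539 bases (18%) with Sphk2, both on the opposite strand. The strand setting of the counting was not given in the sources used here, so reads there may belong to either gene.

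In kidneys on SFD the activator genes were lower in KO. Arntl (ENSMUSG00000055116; chromosome 7, 113207465 to 113314126) was at 11, 16.5, 17.1 and 15.5 FPM in the WT group, whereas the KO group had 10.6, 3.02, 1.02 and 8.41 FPM. Every KO kidney lay below every WT kidney, and the gap between the groups was narrow (11 against 10.6 FPM). The group means were 15 ± 2.75 FPM (SD, n = 4) and 5.75 ± 4.47 FPM (SD, n = 4), a log2 fold change of -1.38 (standard error 0.491).

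Npas2, which can take the place of Clock, showed the same arrangement. It was at 7.32, 15.3, 9.35 and 9.95 FPM in the WT group, whereas the KO group had 5.83, 3.34, 0.818 and 7.05 FPM, again without overlap. Its log2 fold change was -1.29 (standard error 0.465). Clock was at 23.1 to 30.6 FPM in WT and at 12.0 to 27.5 FPM in KO, with overlapping groups and a log2 fold change of -0.46 (standard error 0.228).

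The repressor and output genes were on the other side. Ciart (ENSMUSG00000038550; chromosome 3, 95878503 to 95882251) was at 4.82, 2.26, 3.84 and 3.0 FPM in WT-SFD and at 5.50, 22.2, 28.8 and 6.12 FPM in KO-SFD kidneys. All KO kidneys were above all WT kidneys, but KO replicates 2 and 3 stood far above the rest. Its log2 fold change was 2.15 (standard error 0.494). Dbp (ENSMUSG00000059824; chromosome 7, 45705088 to 45710203) was at 83.2, 20.2, 28.1 and 46.8 FPM in the WT group, whereas the KO group had 71.2, 235, 253 and 95.6 FPM, so that 1 WT kidney lay above 1 KO kidney. Its log2 fold change was 1.88 (standard error 0.485). The log2 fold changes of Per1, Per2 and Per3 were 1.17 (standard error 0.437), 0.83 (standard error 0.392) and 0.83 (standard error 0.346). Those of Nr1d1 and Nr1d2 were 0.32 (standard error 0.134) and 0.44 (standard error 0.197), with overlapping groups for all 5 genes. Without KO-SFD replicate 3 alone, the values of Per1, Per2, Per3 and Nr1d2 were 0.49, 0.15, 0.34 and 0.23. Nr1d2 was at 0.67 without WT-SFD replicate 1, Nr1d1 at 0.21 without WT-SFD replicate 2 and Clock at -0.28 without KO-SFD replicate 2.

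In this comparison 3 of the 10 genes had groups that did not overlap, against 3.98% of all genes tested. With edgeR's quasi-likelihood test, 0.0133% of all genes had an adjusted p under 0.05. Since these values chose the genes, they are a description and carry no test. Without KO-SFD replicates 2 and 3, a choice made after their values were seen, the log2 fold changes kept their sign and were smaller for 9 of the 10 genes: -0.66 for Arntl, -0.69 for Npas2, 0.90 for Dbp, 0.72 for Ciart and 0.36 for Per1. That of Nr1d1 was 0.38. On the other side, WT-SFD replicate 2 had the lowest Per1, Per2, Per3, Nr1d2, Dbp and Ciart and the highest Npas2 of the 16 kidneys. No fit left it out together with KO-SFD replicates 2 and 3. Podocyte markers were set beside these groups. All 5 were lower in KO at an unadjusted p under 0.05 (8.69% of all genes), but 0 were called (smallest edgeR adjusted p = 0.432). Their sum (Podxl the most abundant, none at 0) was 281.2, 242.1, 226.1 and 313.1 FPM in WT-SFD and 214.4, 171.3, 204.0 and 195.9 FPM in KO-SFD kidneys. The sum of 3 thick ascending limb markers (Umod the most abundant, none at 0) lay the other way, at 6292, 5855, 6838 and 5016 FPM in WT-SFD and 7467, 6912, 7354 and 6913 FPM in KO-SFD kidneys. Of 11 adipocyte markers tested, 8 had log2 fold changes above 0 (median of the list 1.20). So had 6 of 6 fibroblast markers (median 0.38), with 0 called in both lists. The part of these marker lists in the result was not tested.

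**Figure D1:**
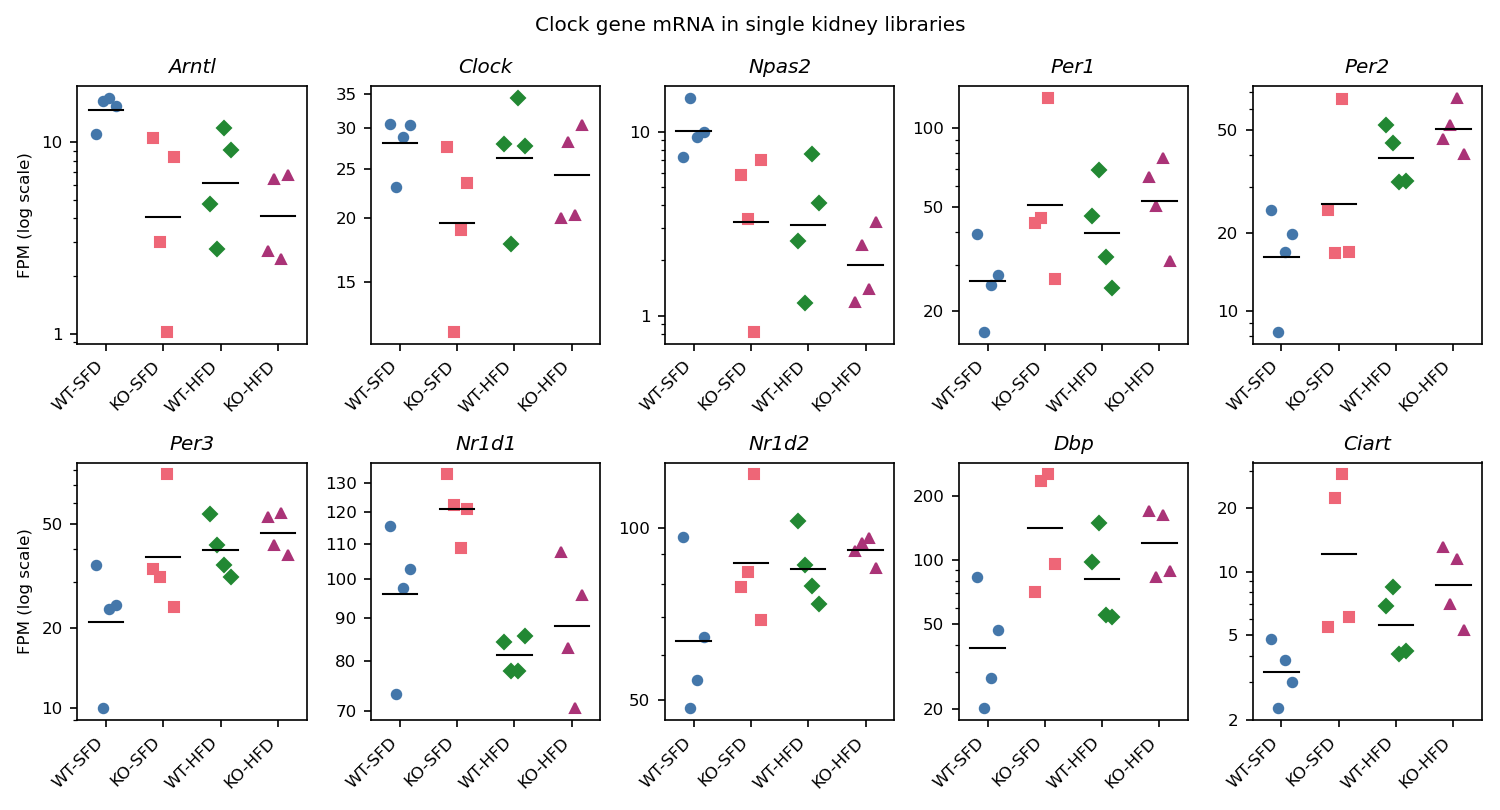
FPM of the 10 clock genes (log axes) in each of the 4 kidneys per group, with the geometric mean of the group as a line. On SFD all KO kidneys lie below the WT kidneys for Arntl and Npas2 and above them for Ciart, while the groups on HFD overlap for all 10 genes.

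The HFD kidneys were not used to choose the genes, and here the genotypes were tested. None of the 10 clock genes was called between KO and WT, nor was any of the 15034 genes (0% at a Benjamini-Hochberg adjusted p under 0.05, edgeR). Groups without overlap were seen for 0 of the 10 and for 1.32% of all genes. At an unadjusted p under 0.05 there were 0 of the 10 and 263 of all genes (1.75%), and DESeq2 called 0 of the 10. Arntl was at 4.77, 2.76, 11.9 and 9.13 FPM in WT-HFD and at 2.71, 6.45, 2.47 and 6.74 FPM in KO-HFD kidneys. The groups overlapped, and the log2 fold change was -0.59 (95% confidence interval -1.72 to 0.54). Dbp was at 98.2, 150, 55.4 and 54.4 FPM in the WT group, whereas the KO group had 170, 83.3, 164 and 89.1 FPM, a log2 fold change of 0.50 (95% confidence interval -0.49 to 1.49). Both intervals include 0.

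Across the 10 genes the HFD values had the sign seen on SFD in each case, but that of Clock changed sign, from -0.12 to 0.02, without WT-HFD replicate 3. Ciart had a log2 fold change of 0.62 (standard error 0.484), Npas2 of -0.85 (standard error 0.575) and Per1 of 0.37 (standard error 0.429). Single kidneys moved these values. With 1 library left out Arntl ran from -0.86 to -0.24 and Npas2 from -1.15 to -0.32, both nearest to 0 without WT-HFD replicate 3. Per1 ran from 0.18 without WT-HFD replicate 4 to 0.69 without WT-HFD replicate 2, and Dbp from 0.32 to 0.85 without the same kidneys. Ciart ran from 0.40 to 0.83. Whether the genotypes differ less on HFD is a contrast that shares the SFD kidneys with the choice of genes and was not tested for them.

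**Figure D2:**
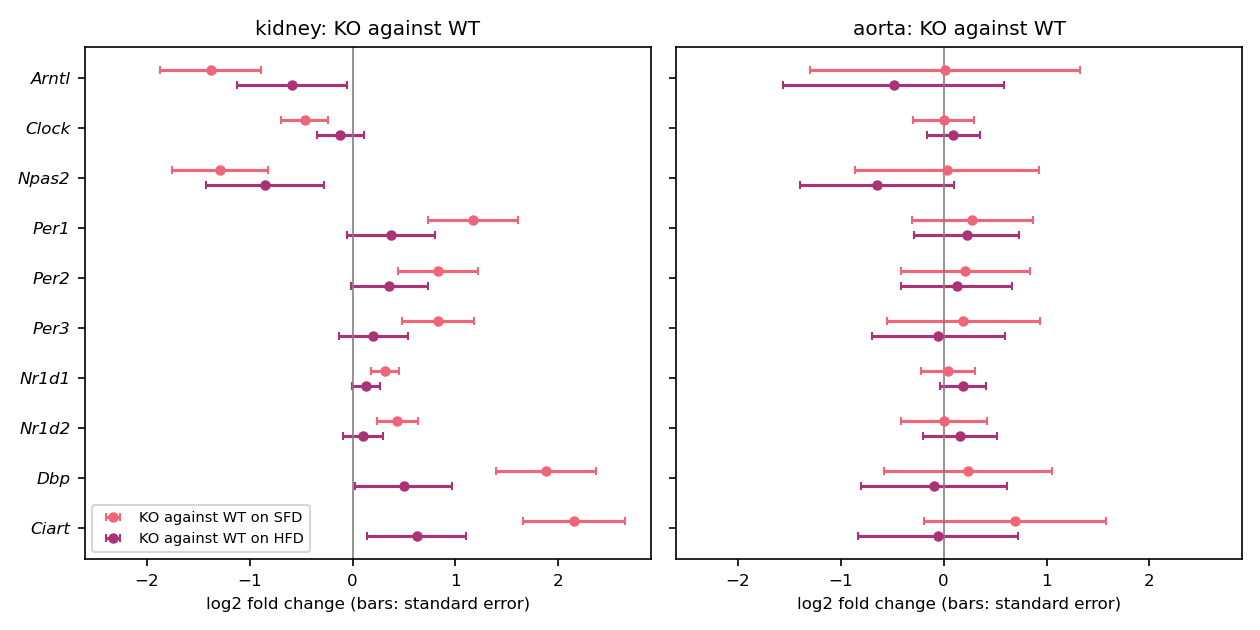
Log2 fold change of KO against WT for the 10 clock genes on SFD and on HFD in the kidney (left) and aorta (right), with bars for the standard error. In the kidney, Arntl, Clock and Npas2 lie below 0 and the other 7 genes above 0 on both diets, and in the aorta all values lie between -0.65 and 0.69.

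Both diet comparisons in the kidney use the SFD kidneys and are given as a description. In WT, Npas2 was lower on HFD by a log2 value of -1.45 (standard error 0.471) and Arntl by -1.09 (standard error 0.48), and Per2 was higher by 1.20 (standard error 0.39). Per2 was at 24.6, 8.29, 16.9 and 19.8 FPM in WT-SFD and at 52.3, 44.6, 31.5 and 31.7 FPM in WT-HFD kidneys, without overlap, and it was the only one of the 10 genes so arranged (1 of 10, against 5.01% of all genes). In KO kidneys Nr1d1 was the only one without overlap (1 of 10, against 8.87% of all genes): 133, 122, 109 and 121 FPM on SFD and 108, 83.0, 70.4 and 95.9 FPM on HFD, a log2 fold change of -0.44 (standard error 0.135). Arntl and Dbp, by contrast, had values of -0.30 (standard error 0.545) and -0.37 (standard error 0.466) in KO. That of Arntl changed sign, to 0.19, without KO-SFD replicate 1, and that of Dbp was -0.08 without KO-SFD replicate 3. The kidney means of Arntl ran from WT-SFD (15 FPM) over WT-HFD (7.15 FPM) and KO-SFD (5.75 FPM) to KO-HFD (4.59 FPM), and among the last 3 each mean lay within 1 SD of the one after it, taking the larger SD of both groups, whereas WT-SFD and WT-HFD were 1.89 such SDs apart. For Dbp the order was KO-SFD (164 FPM), KO-HFD (126 FPM), WT-HFD (89.5 FPM) and WT-SFD (44.6 FPM), each within 1 such SD of the next (0.994 for the last pair).

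In the aorta Arntl and Dbp varied widely between the mice of every group. Arntl was at 15.3, 7.18 and 1.16 FPM in WT-SFD, at 33.3, 9.25, 1.36 and 0.895 FPM in WT-HFD, at 1.21, 22.8 and 0.725 FPM in KO-SFD and at 0.734, 10.0, 16.6 and 3.83 FPM in KO-HFD aortae. Each group held high and low mice. The same held for Dbp. Dbp was at 41.6, 72.0 and 144 FPM in WT-SFD, at 7.75, 57.7, 153 and 181 FPM in WT-HFD, at 129, 30.1 and 144 FPM in KO-SFD and at 165, 50.1, 45 and 115 FPM in KO-HFD. In each group the mouse with the most Arntl had the least Dbp. In WT-HFD replicate 1, Arntl was at its highest and Dbp at its lowest of all 14 aortae.

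Npas2 and Ciart divided the mice along the same line. On SFD, the WT aortae had Npas2 at 26.9, 14.6 and 4.76 FPM, whereas the KO aortae had 5.63, 35.5 and 6.80 FPM. Ciart was at 3.41, 4.72 and 20.8 FPM in WT-SFD and 21.6, 2.79 and 21.2 FPM in KO-SFD, so that its high mice were the low mice of Npas2. On HFD, Npas2 ran from 5.88 to 64.2 FPM in WT and from 5.01 to 28.3 FPM in KO, and Ciart from 1.73 to 15.6 FPM in WT and from 2.72 to 17.5 FPM in KO. Both groups of each diet overlapped for both genes. Per3, the Per gene with the widest spread, ran over all 14 aortae from 17.1 to 219 FPM, and Nr1d1 from 110 to 310 FPM.

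The spread within groups of the aorta was large beside that of other genes. The pooled within-group SD of Arntl was 2.11 on the log2 scale, above that of 99.93% of the 14796 genes tested, whose median was 0.296. Dbp (1.42), Ciart (1.41) and Npas2 (1.35) were above 99% of the genes, whereas Clock (0.428) and Nr1d1 (0.393) were nearer to the median. Differences within groups made up 88.5% (Nr1d1) to 98.0% (Per2) of the variance of the 10 genes, against a median of 73.3% over all genes. In the kidney the SD of Arntl was 0.969 and that of Nr1d1 0.205, where the median of all genes was 0.243.

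None of the 10 genes was called in any of the 5 aorta comparisons (edgeR, Benjamini-Hochberg adjusted p under 0.05). Of all genes, 0.0811% were called for KO against WT on SFD, 0.0811% for KO against WT on HFD, and 0% for HFD against SFD in WT, for HFD against SFD in KO and for the difference of the diet effects. The called genes numbered 12 on each diet for KO against WT, and single aortae moved these counts: on SFD to 5 without WT-SFD replicate 2 and to 61 without WT-SFD replicate 3, and on HFD to 6 without WT-HFD replicate 1 or 2. Diet in WT went from 0 to 1907 without WT-SFD replicate 3, and diet in KO from 0 to 15 without KO-SFD replicate 3, with 0 of the 10 clock genes in each case. No clock gene of the 10 reached an unadjusted p under 0.05 in any of the 5 comparisons, where 6.54%, 5.35%, 17%, 7.85% and 4.37% of all genes did, and DESeq2 called 0 of the 10. Groups without overlap were seen for 0 of the 10 in the 4 comparisons of groups, against 8.57%, 4.18%, 8.96% and 7.04% of all genes. For KO against WT, the log2 fold change of Arntl was 0.01 on SFD (95% confidence interval -2.79 to 2.82, edgeR adjusted p = 0.999) and -0.49 on HFD (95% confidence interval -2.79 to 1.81, edgeR adjusted p = 0.999). For Dbp it was 0.24 on SFD (95% confidence interval -1.51 to 1.99, edgeR adjusted p = 0.968) and -0.09 on HFD (95% confidence interval -1.61 to 1.42, edgeR adjusted p = 0.999). For HFD against SFD, Arntl had 0.52 in WT (95% confidence interval -2.03 to 3.07) and 0.02 in KO (95% confidence interval -2.53 to 2.57). Dbp had 0.22 in WT (95% confidence interval -1.42 to 1.86) and -0.11 in KO (95% confidence interval -1.74 to 1.52).

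**Figure D3:**
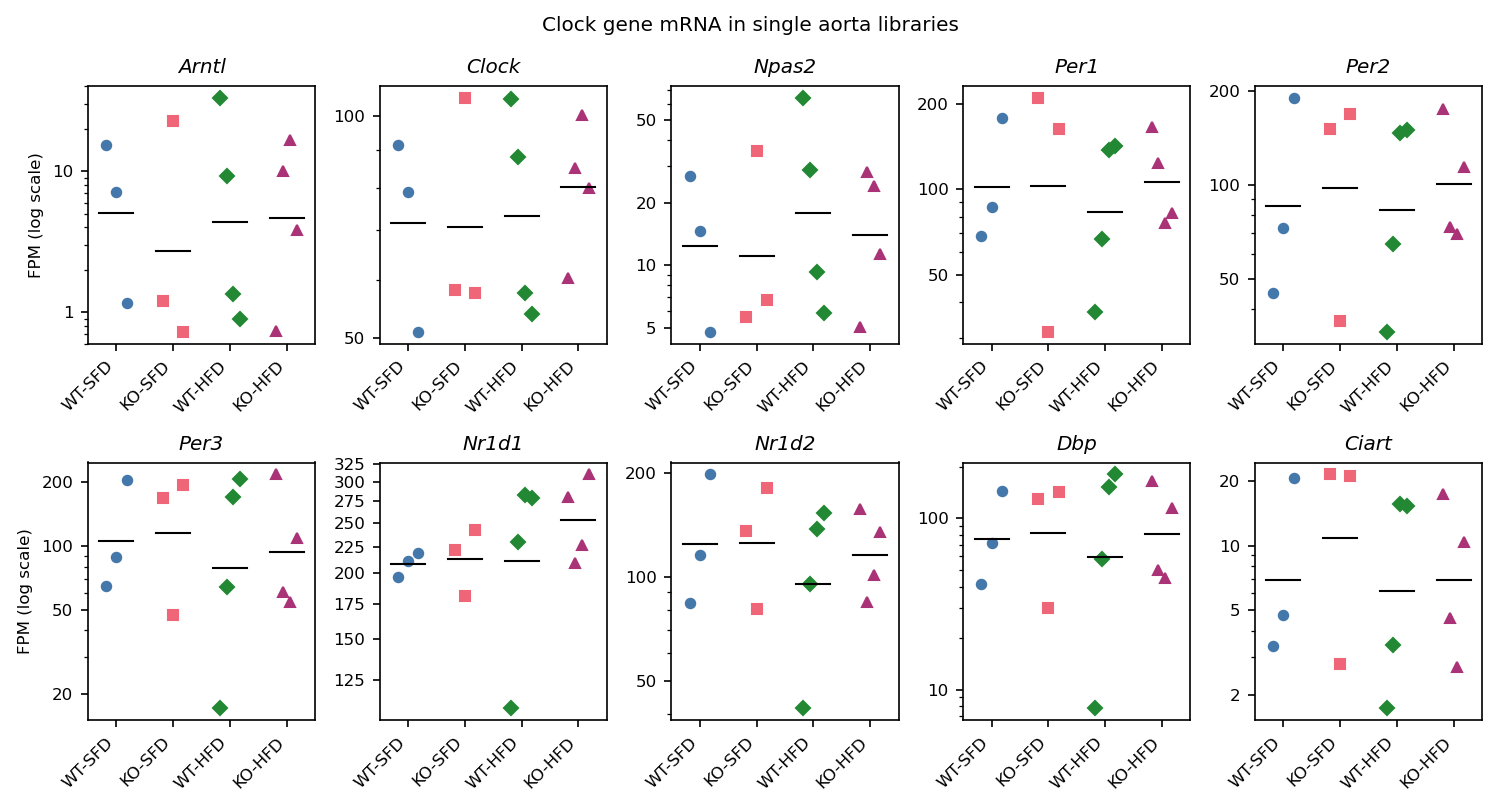
FPM of the 10 clock genes (log axes) in each aorta (3 per SFD group, 4 per HFD group), with the geometric mean as a line. Within each group Arntl, Clock and Npas2 range from high to low, and the groups overlap.

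Adipocyte markers in the aortae were set beside this variation. The mean log2 level of 12 adipocyte markers was 7.15, 6.77 and 1.95 in the WT-SFD aortae, in which Arntl was at 15.3, 7.18 and 1.16 FPM. The marker mean was 6.28, 4.91 and 1.99 in the KO-SFD aortae, in which Arntl was at 1.21, 22.8 and 0.725 FPM. In the HFD aortae it lay between 1.37 and 3.48. On SFD high means stood beside both high and low Arntl, whereas the lowest means (1.95 and 1.99) stood beside low Arntl. Low means stood beside high Arntl in HFD aortae only, such as 2.29 beside 33.3 FPM in WT-HFD replicate 1. The part of these cells in the variation was not tested.

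The genes varied together from mouse to mouse, in 18 relations with Arntl (log2 values, two-sided permutation tests, Benjamini-Hochberg adjustment over the 18). The libraries of a tissue were sequenced at the same place and differ in depth, and the relations describe these mice. Over the 8 HFD kidneys, which the choice of genes did not use, Arntl was related to Dbp with Pearson's r = -0.982 (Spearman's rho = -0.929, exact permutation p = 0.000372, adjusted p = 0.000744). The relation to Ciart was r = -0.943 (rho = -0.952, exact permutation adjusted p = 0.00211), and to Npas2 r = 0.966 (rho = 0.881, exact permutation adjusted p = 0.000982). Clock (r = 0.925), Per1 (r = -0.909), Per3 (r = -0.791) and Per2 (r = -0.753) also passed an adjusted p of 0.05. Nr1d2 (r = -0.595, exact permutation adjusted p = 0.13) and Nr1d1 (r = -0.002, exact permutation adjusted p = 0.995) did not. On deviations from the means of the 2 genotypes Per2 did not pass (r = -0.712, exact permutation adjusted p = 0.0609), and Per3 passed by r (-0.758, exact permutation adjusted p = 0.0426) but not by rho (-0.619, exact permutation adjusted p = 0.129). Without the 2 kidneys farthest from the median of Arntl, r was -0.976 for Dbp, -0.906 for Ciart and 0.974 for Npas2. For Per2 it was -0.478 and for Per3 -0.684, and neither passed with 6 kidneys. For Clock it was 0.882 at an adjusted p of 0.05. By rho, Clock did not pass there (rho = 0.600, exact permutation adjusted p = 0.29), and Npas2 and Per1 were at an adjusted p of 0.05. The Arntl values of the HFD kidneys had a widest gap of 0.769 on the log2 scale, 34.5% of their range, with 5 kidneys above and 3 below it, too few on either side for a correlation of their own.

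In the aorta the values of Arntl were split by a gap of 1.36 on the log2 scale, 26.5% of their range, with 8 aortae above and 6 below it. Over all 14 aortae the relations ran from r = -0.980 for Ciart (rho = -0.921, permutation adjusted p = 5.1e-05) to r = 0.970 for Clock (rho = 0.912, permutation adjusted p = 3e-05, from a p of 1e-05, the smallest that 100000 resamples can give), with all 9 below an adjusted p of 0.05. Without the 2 aortae farthest from the median of Arntl all 9 passed by r, from r = -0.990 for Per3 to r = 0.967 for Clock, whereas by rho Nr1d1 did not (rho = -0.594, permutation adjusted p = 0.0644). Among the 8 aortae above the gap the values ran from r = -0.947 for Ciart to r = 0.927 for Clock. By r all 9 passed when adjusted over these 9 relations alone, and 8 passed when adjusted over the 18 relations of both sides of the gap, the weakest being Per1 (r = -0.706, exact permutation adjusted p = 0.0492 and 0.0985). By rho Per1 did not pass over the 9 either (rho = -0.667, exact permutation adjusted p = 0.0831). Among the 6 below it none passed in either way, from r = -0.712 for Per3 to r = 0.337 for Npas2. There Arntl rested on 6 to 13 counts. Nr1d1, with r = -0.002 in the HFD kidneys, had r = -0.696 over the 14 aortae (rho = -0.684, permutation adjusted p = 0.00212). On deviations from the group means r was -0.986 for Ciart and 0.986 for Clock, so these relations were seen within groups too.

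**Figure D4:**
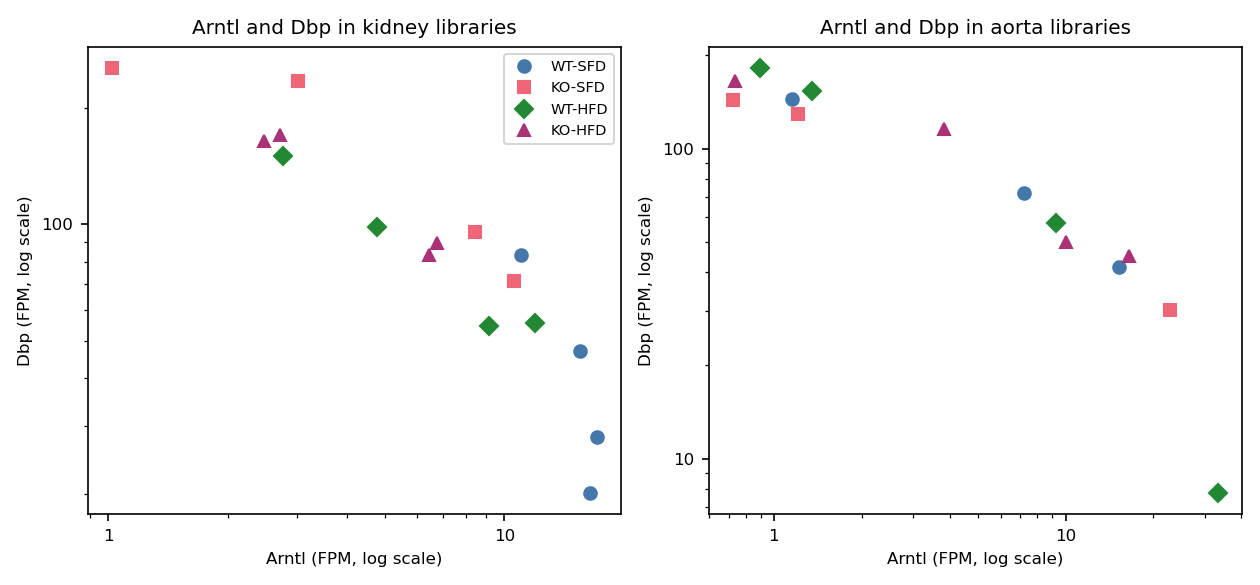
Dbp against Arntl (FPM, log axes) in the 16 kidneys (left) and 14 aortae (right), 1 point per library with the group as symbol. The 3 kidneys with the most Arntl are all WT-SFD, whereas in the aorta the groups are mixed along the whole range.

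The number of the animal in the labels linked 3 kidneys with 3 aortae. Kidney KO-SFD replicate 3 had the lowest Arntl (1.02 FPM) and the highest Dbp (253 FPM) and Ciart (28.8 FPM) of the 16 kidneys. The aorta of the same number, KO-SFD replicate 1, had the highest Ciart (21.6 FPM) and Per1 (210 FPM) of the 14, but from the highest it was number 6 for Dbp (129 FPM) and number 10 for Arntl (1.21 FPM). In the WT-SFD pair Arntl was at 11 FPM in the kidney and 15.3 FPM in the aorta, and in the KO-HFD pair at 6.45 FPM and 16.6 FPM. The labels do not state that both tissues of a number came from 1 mouse, and 3 pairs are too few for a correlation.

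Of 22 other clock genes, 17 were tested in the kidney and 18 in the aorta. Bhlhe40, a repressor that binds E-boxes, was higher in the HFD than in the SFD kidneys of both genotypes. It was at 74.5, 70.0, 60.4 and 75.1 FPM in WT-SFD and at 131, 123, 129 and 116 FPM in WT-HFD kidneys. In KO it was at 84.6, 104, 94.1 and 69.3 FPM on SFD and at 129, 123, 136 and 121 FPM on HFD. No HFD kidney overlapped with an SFD kidney of its genotype, an arrangement of 5.01% of all genes in WT and 8.87% in KO. Of the 17, 3 were so arranged with higher and 1 with lower values in WT, and 1 with higher values in KO. The log2 fold changes of Bhlhe40 were 0.84 (standard error 0.109) at an adjusted p of 6.7e-04 and 0.53 (standard error 0.109) at an adjusted p of 0.0126 (edgeR). It was the 1 called of the 17 in each genotype, where 0.964% of all genes were called in WT and 2.39% in KO. In KO its adjusted p was 0.0745 when only the compared groups were fitted. Cell type markers in these diet comparisons are given with the other lists below, and their part in this difference was not tested. Both comparisons use the SFD kidneys that served to choose the 10 genes, and time of day and diet group cannot be told apart. In the aorta Bhlhe40 was at 12.4 to 57.3 FPM, with an adjusted p of 0.448 (edgeR) on HFD in WT.

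Bhlhe41, its close relative, was higher in KO kidneys on SFD, at 5.37, 1.57, 3.97 and 2.82 FPM in the WT group against 7.28, 11.1, 11 and 6.61 FPM in the KO group, without overlap. Of all genes, 3.98% had groups without overlap there, and of the 17 other clock genes 1 was so arranged with higher and 1 with lower values. The log2 fold change of Bhlhe41 was 1.36 (standard error 0.385), but the adjusted p was 0.432 (edgeR). This comparison chose the 10 genes, and over the 16 kidneys Bhlhe41 varied with Dbp (r = 0.879). Its values here are therefore not independent of that choice. Bhlhe41 shares 1280 bases of exon (19%) with Gm43909 on the opposite strand, so reads there may belong to either gene. No gene of the 17 was called in KO against WT on either diet, and 6 of them had an unadjusted p under 0.05 on SFD (8.69% of all genes) and 0 on HFD. The count on SFD comes from the kidneys that chose the 10 genes and is not independent of them. In the aorta edgeR called 0 of the 18 other clock genes in each comparison. At most 4 of them reached an unadjusted p under 0.05 (4 for diet in WT, where 17% of all genes did). In that comparison DESeq2 called 1 of the 18, for which no share over all genes is given here. Of the other clock genes, Rora, Tipin, Usp2 and Alas1 had no count in any library. The same held for the heat shock gene Hspa8 and, even in the aorta, for the smooth muscle marker Tagln. Such zeros cannot be read as lack of expression.

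**Figure D5:**
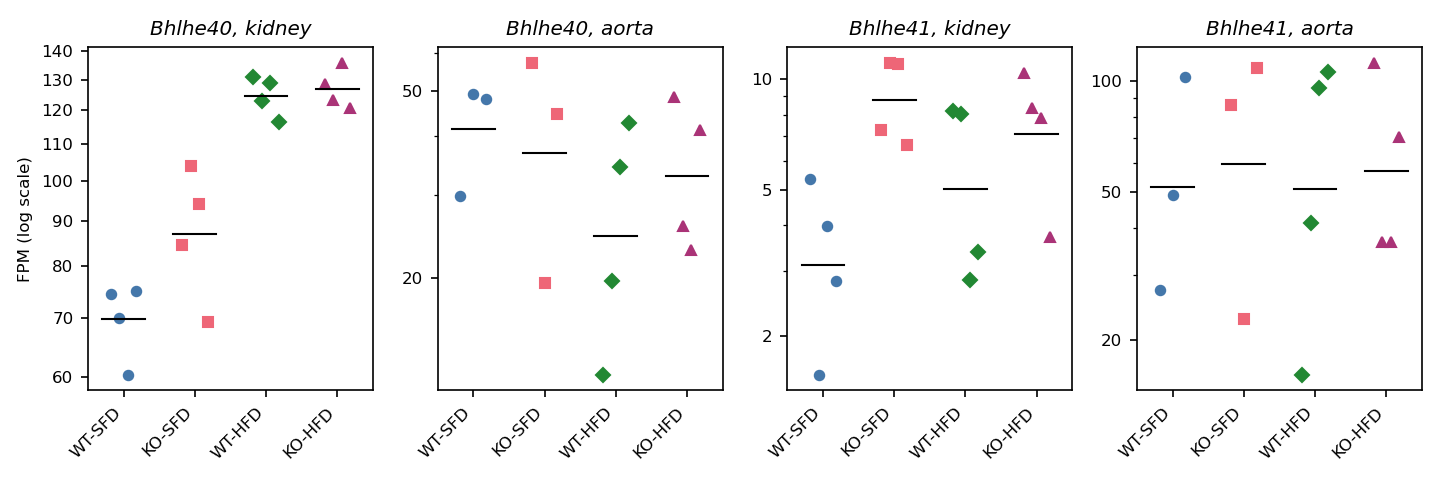
FPM of Bhlhe40 and Bhlhe41 (log axes) in single libraries of kidney and aorta, with the geometric mean as a line. Bhlhe40 is higher on HFD in both kidney genotypes, and Bhlhe41 on SFD is higher in all KO kidneys than in the WT kidneys, while the aorta groups overlap for both genes.

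The genes most like the clock genes were named by their correlation over all libraries of a tissue, as a description. Over 16 kidneys, the highest r with Arntl outside the 10 genes was that of Tfrc, the transferrin receptor (r = 0.915), followed by Gm5844 (0.912), Gm12346 (0.899), Dgkd (0.892) and Mcm6 (0.884). The lowest were Herpud1 (r = -0.904), Cry2 (-0.875) and Tm6sf2 (-0.874). These values hold the difference between groups that chose the genes. On deviations from the group means the highest with Arntl were Gm5844 (r = 0.924), Apobec1 (0.888), Ppid (0.885), Pcdh12 (0.884) and Ostc (0.88) and the lowest Rassf3 (-0.948), so that Tfrc was no longer among the first 5. For Dbp, over the values themselves, the highest were Tef, a relative of Dbp (r = 0.928), and Cry2 (0.901), and the lowest Mcm6 (-0.923). On deviations from the group means the highest with Dbp were Tef (0.905), Clcn2 (0.892) and Cry2 (0.885), and the lowest was Mcm6 (-0.893). Over the values of 14 aortae, Arntl was lowest with Bhlhe41 (r = -0.98), Hlf (-0.974) and Slc6a6 (-0.962) and highest with Eif4g3 (0.921). Dbp was highest with Tef (r = 0.978) and Tcap (0.973). The libraries of a tissue share their sequencing and collection, and no test was run on these values. Gm5844 and Gm12346 are gene models whose reads may come from near-identical copies.

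Other lists related to clock, hormone and feeding were counted beside all genes. For KO against WT in the kidney, edgeR called 0 of 11 kidney transport genes tied to the clock, 0 of 10 glucocorticoid targets, 0 of 11 vascular genes tied to the clock, 0 of 8 temperature responsive genes and 0 of 11 feeding genes on either diet. In the same order 3, 2, 0, 1 and 2 of them had an unadjusted p under 0.05 on SFD, where 8.69% of all genes did, and 0 of each list did so on HFD, against 1.75% of all genes. For diet in WT kidneys 0 genes of the 5 lists were called, where 0.964% of all genes were. Of 7 proximal tubule markers 1 was called there, higher on HFD (edgeR adjusted p = 0.00533), and its part was not tested. For diet in KO kidneys, where 2.39% of all genes were called, 2 of 11 transport genes were called, with Slc12a3, the thiazide-sensitive sodium chloride cotransporter, higher by a log2 value of 0.71 (edgeR adjusted p = 0.0124) and Wnk4 lower by -0.39 (edgeR adjusted p = 0.0464). Of the 10 glucocorticoid targets 3 were called: the metallothioneins Mt1 and Mt2 were lower, by -1.33 (edgeR adjusted p = 0.0246) and -1.64 (edgeR adjusted p = 0.0343), and Errfi1, a feedback inhibitor of EGFR, was higher by 1.30 (edgeR adjusted p = 0.00139). At an unadjusted p under 0.05 there were 7 of these 10 targets, 3 higher and 4 lower, against 16.1% of all genes. Of the other lists 3 of 11 transport, 2 of 11 vascular, 1 of 8 temperature responsive and 2 of 11 feeding genes were under this limit. Cell type markers were set beside diet in the same KO kidneys. Of them, 0 of 3 thick ascending limb and 0 of 5 podocyte markers were called (smallest edgeR adjusted p = 0.107 and 0.137). Of 7 proximal tubule markers (Slc34a1 the most abundant, none at 0) 6 had log2 fold changes above 0, and 1 was called, the glucose transporter Slc5a2, at 317.1 to 374.3 FPM on SFD and 666.6 to 1453 FPM on HFD (log2 fold change 1.54, edgeR adjusted p = 5.9e-04). Their sum was 10560 to 12200 FPM on SFD and 11690 to 17700 FPM on HFD, with overlap. The summed thick ascending limb markers were at 6912 to 7467 FPM on SFD and at 5602, 5443, 2969 and 4381 FPM on HFD, without overlap, and 3 of 3 were lower at an unadjusted p under 0.05. The summed adipocyte markers were at 1538, 1289, 2042 and 2272 FPM on SFD and at 3501, 3326, 7192 and 3327 FPM on HFD, also without overlap. Most of this sum was Pck1 (1183 to 1945 FPM on SFD and 3159 to 6980 FPM on HFD), which proximal tubule cells also express, and 8 of the 11 adipocyte markers tested had log2 fold changes below 0. The 1 adipocyte marker called, Lep (leptin), was higher on HFD (log2 fold change 4.91, edgeR adjusted p = 0.0158), from 3 to 4 counts per library on SFD to 32, 53, 271 and 53 counts on HFD. Of the podocyte markers 4 of 5 were higher at an unadjusted p under 0.05. The part of these markers in the values above was not tested.

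In the aorta edgeR called 0 genes of these lists in each of the 5 comparisons. For diet in WT, where 17% of all genes had an unadjusted p under 0.05, 5 of 8 feeding genes did so, all with lower values on HFD. Among them were Ppargc1a, a coactivator of mitochondrial genes (log2 fold change -1.95, edgeR adjusted p = 0.0674), and Pdk4, a kinase that restrains pyruvate oxidation (log2 fold change -3.25, edgeR adjusted p = 0.0686). Of the other lists 2 of 6 transport genes, 3 of 11 vascular genes, 3 of 10 glucocorticoid targets and 1 of 8 temperature responsive genes did so. The lists share genes, so that these counts are not separate: Pdk4 is also among the glucocorticoid targets and Ppargc1a among the vascular genes. The adipocyte marker mean was also higher in WT-SFD replicates 1 and 2 (7.15 and 6.77) than in the WT-HFD aortae (2.29 to 3.48), and its part in these values was not tested. In the other 4 comparisons at most 3 genes of any of these lists had an unadjusted p under 0.05. Of all genes, 6.54% (KO against WT on SFD), 5.35% (on HFD), 7.85% (diet in KO) and 4.37% (difference of the diet effects) did so. Of the cell type markers, 9 of 12 adipocyte markers were lower for diet in KO at this limit, with 0 called. In KO against WT on SFD, 4 of 5 leucocyte markers were higher at this limit, with 0 called. Their part in these values was not tested.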

How the data were processed

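Aortae and kidneys of single mice were analysed by RNA sequencing of 14 and 16 libraries. The authors aligned reads to GRCm38/mm10 (cutadapt, TopHat, featureCounts per the labels) and deposited raw counts per gene, 1 column per library and not normalised. All 30 columns were used and 0 were left without a sample. Groups came from the genotype and diet in the labels. Of the 4 animals that the study states for an aorta group, 3 were used here in each SFD group. The clock genes, the other lists and the tests were chosen with earlier results of these data known.

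Each tissue was fitted separately with R 4.3.3 and edgeR 4.0.16 (TMM factors, filterByExpr by group, quasi-likelihood test by glmQLFit and glmQLFTest, 1 coefficient per group), with limma 3.58.1 loaded. Log2 values for correlations used a prior count of 2. P values were adjusted over all genes tested by the Benjamini-Hochberg method, and genes whose adjusted p lay under 0.05 are named as called. The clock genes carry no p for kidney comparisons that use SFD libraries. Exact or 100000-resample permutation tests were run in Python 3.11.15 with numpy 2.4.6 and scipy 1.17.1, and figures were drawn with matplotlib 3.10.9. The scripts were tested on simulated data. The values of 1 of the other clock genes are not reported here, but the counts include it. Genes named are the 10 clock genes, those of the lists (up to 4 of the smallest p) and, outside the 10, the 5 highest and 3 lowest in r with Arntl and Dbp.

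The alternatives were DESeq2 1.42.0, RLE factors, no low count filter, library totals, the legacy quasi-likelihood method, only the groups compared, an adjusted p of 0.001 (the limit of the study), an adipocyte covariate in the aorta, leaving out each library, correlations on deviations or without 2 libraries, and, added after seeing the data, the aortae on either side of the gap and the kidneys without KO-SFD replicates 2 and 3. Replicates are single mice as labelled. The edgeR p-values set a group difference against the spread between mice, and the permutation p-values concern the pairing of Arntl with another gene over mice. Promoter sequences were taken from RefSeq, GRCm38.p6, and gene positions and exon overlaps from GENCODE vM21.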

Additional observations from a re-analysis of the deposited data

Results flagged for a closer look

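Per2 in kidney KO-SFD replicate 3 was at 66.1 FPM, where the other KO-SFD kidneys were at 16.8, 16.8 and 24.5 FPM. It stood apart because its gap to the nearest kidney was 0.843 of the range of the group. It was the 1 value standing apart among 60 groups of 4 tested for the 10 genes. Chance alone gives about 1 in 20 such groups, so that 1 among 60 is no more than chance gives. The KO-SFD kidneys also served to choose the genes, so the value is a description. Without this kidney the log2 fold change of Per2 for KO against WT on SFD was 0.15, against 0.83 with it. The cause was not tested.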

How the results depend on the processing

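The count of 0 clock genes called held in all 96 alternatives of the 6 tested comparisons. No paired analysis was possible because the animal numbers of the groups do not pair mice between them.

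For the other clock genes, HFD against SFD in KO kidneys called 1 gene, and 0 at an adjusted p under 0.001 or with only the groups compared (1 to 2 with a library left out). HFD against SFD in WT aortae called 0, and 1 without the low count filter, with library totals or with DESeq2 (0 to 4 with a library left out, 4 without WT-SFD replicate 3). Over all genes this last comparison gave 0 called and, over the alternatives, up to 1907, and HFD against SFD in KO kidneys 360, with 203 to 695. KO against WT on SFD in the kidney gave 2, with 0 to 26, and in the aorta 12 on SFD, with 4 to 61, and 12 on HFD, with 6 to 40. Library totals moved the median gene of the aorta to 0.27 in the SFD genotype comparison and to -0.11 for diet in KO.

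None of the log2 fold changes that changed sign was called. In HFD kidneys Clock was -0.12, with -0.277 to 0.0179 without 1 library. For diet in the kidney with 1 library left out, Clock in WT ran from -0.21 to 0.09, and in KO Arntl from -0.65 to 0.19, Per1 from -0.39 to 0.53, Per3 from -0.0198 to 0.65 and Nr1d2 from -0.0616 to 0.25. In the aorta with 1 library left out, Arntl ran from -3.04 to 0.86 for KO against WT on SFD, from -1.17 to 1.03 on HFD, from -1.0 to 1.37 for diet in WT and from -0.67 to 3.11 in KO, and Dbp from -0.0925 to 0.83, from -0.52 to 0.36, from -0.23 to 0.81 and from -0.54 to 0.22. Arntl for diet in KO was -0.14 with library totals, -6e-04 with the legacy method, -0.0231 with only the groups compared and -0.0686 with DESeq2. Dbp for KO against WT on HFD was 0.10 with library totals, and for diet in WT -0.0145 with the adipocyte covariate. The causes were not tested.

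Without the 2 HFD kidneys farthest from the median of Arntl, r was 0.882 for Clock, -0.478 for Per2 and -0.684 for Per3. On deviations from the group means it was -0.712 for Per2, which then did not pass, and 0.127 for Nr1d1. Below the gap in Arntl, the aortae gave r = -0.295 for Clock, 0.337 for Npas2, 0.098 for Per1, -0.348 for Per2, -0.712 for Per3, -0.244 for Nr1d1, -0.373 for Nr1d2, -0.396 for Dbp and -0.055 for Ciart. The lowest counts of Arntl in the aorta limit what can be read there.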
